A study of Mus musculus with 6 samples.

Results

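The immunoglobulin genes of B cells were followed through every array element, or probe set, whose annotation named at least 1 immunoglobulin variable (V), diversity (D), joining (J) or constant gene of the heavy, kappa or lambda locus. That rule gave 31 of the 35512 probe sets on the arrays, each treated as 1 unit whether it carried 1 symbol (15 probe sets) or several (16 probe sets), and the helicase gene Ighmbp2, which only shares the prefix, was left out. Total RNA was measured on 6 Mouse Gene 1.0 ST arrays, 2 for each of 3 groups, and all the cells carried the Eµ-Myc transgene, in which the enhancer of the immunoglobulin heavy chain locus drives the oncogene Myc in B-lineage cells. The premalignant group was splenic B cells sorted from Eµ-Myc mice before lymphoma, made as independent preparations according to the study's design text. The shEzh2.781 and shEzh2.556 groups were primary Eµ-Myc B cell lymphomas that arose with 1 of 2 short hairpin RNAs against Ezh2, the enzyme that places the repressive H3K27 methyl mark. The lymphoma cells were enriched by removing CD43-positive cells with magnetic beads, and flow cytometry put the B220-positive, GFP-positive fraction at 95% or more. No lymphoma without a hairpin was analysed here, so hairpin, malignancy and the way the cells were prepared cannot be told apart in any comparison with the premalignant cells. The labels give no age or strain, do not tell whether the arrays of a hairpin represent separate animals, and in 1 field call the premalignant cells normal controls; p-values therefore measure the spread between these arrays, which for the lymphomas may be technical.

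An immunoglobulin is built from paired heavy and light chains. During B cell development the recombinase joins a V, a D and a J segment of the heavy locus and then a V and a J segment of a light chain locus, usually kappa and otherwise lambda, and each B cell usually keeps a single productive choice for each chain. A mixed population of B cells therefore uses many V segments, whereas the descendants of a single mature cell share their heavy and light V segments. Ighm encodes the constant part of IgM, the first class made; Ighg3 and Igha encode the constant parts of IgG3 and IgA, which are made after class switching.

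The 31 probe sets covered the repertoire thinly. They comprised 10 heavy chain probe sets (gene symbols on chromosome 12), 19 kappa probe sets (chromosome 6) and 2 lambda probe sets (chromosome 16), by the chromosomes of the GRCm38.p6 reference gene table. Their annotation named 24 distinct V symbols, 3 heavy, 19 kappa and 2 lambda, while the reference table lists 348 V genes and pseudogenes. Of the 32 gene identifiers linked to them, 31 were found in that table; Igk-V21 was not found, Ighv1-33 and Igkv4-77 are listed as pseudogenes, and Map3k20, a kinase gene on chromosome 2, is linked to 2 kappa probe sets. No probe set carried a D segment, a heavy J segment, Ighd, Ighe or another Ighg symbol, and the kappa J segment Igkj1 appeared on 1. Symbols reached a probe set through lists of 1 to 20 transcript accessions, and the annotation used here gives no position for the probes. A probe set named Igha or Ighm is therefore not known to read a constant exon, and 4 of the heavy probe sets and 4 of the kappa probe sets named V and constant genes together. Several probe sets were linked to the same accessions and are not independent: the Igha probe sets 10403034 and 10403063 shared all 7 of theirs.

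The B cell genes Cd79a and Cd79b read high in all 6 arrays, while some other B cell markers differed between the groups. Of 9 measured, 4 were lower in the lymphomas (Pax5, Ebf1, Blk and Cd72) and 1 higher (Cd22). These had a limma adjusted p below 0.05, as did 6.93% of all probe sets. The deposited log2 signal of Cd79a, a signalling partner of surface immunoglobulin, lay between 12.34 and 12.56, and that of its partner Cd79b between 12.82 and 13.00. Ezh2, the hairpins' target, read 12.64 and 12.70 in the premalignant arrays, 10.92 and 11.07 with shEzh2.781 and 11.20 and 11.30 with shEzh2.556. It fell by 1.55 ± 0.10 (limma estimate ± SE) in the lymphomas (adjusted p = 0.00117), and Myc differed by 0.14 (adjusted p = 0.416). The median signal of an array ranged from 6.75 to 6.91, and the medians of the shEzh2.781 arrays were on average 0.12 below those of the premalignant arrays; centring the arrays would raise every shEzh2.781 difference by that amount.

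Every heavy chain probe set read lower in the lymphomas. Measured differences in mean signal ran from -3.26 to -0.98 on the log2 scale, with a median of -2.30 against 0.011 over all probe sets. The files hold no detection call, so the median signal of 52 T cell receptor V probe sets in the same array, segments that B cells do not rearrange, stood in for background (5.74 to 6.09). Of the 10 heavy probe sets, 4 lay below it in at least 1 lymphoma array: Ighg3 (10403046) in all 4, Ighv3-6 with Igha (10403009) and Ighm 10403069 in 3 each, and 10403021 in 1. For such probe sets a fold is given as a bound, with each signal raised at least to that median before averaging. The words at least refer to the background alone: the bound is taken from the means of these arrays and does not allow for the spread between them. For Ighm 10403069 the 95% interval of the measured difference was -3.29 to -1.80. Over the 10 heavy probe sets these folds ran from 1.97 to 6.96-fold lower, with a median difference of -2.29. All 10 passed the test of the lymphoma mean against the premalignant mean (limma over all 35512 probe sets, Benjamini-Hochberg adjusted p below 0.05; adjusted p from 0.00162 to 0.0392), as did 1 lambda and none of the 19 kappa probe sets. Over all probe sets 6.93% were called, 2.17% higher and 4.77% lower. All 4 lymphoma arrays read below both premalignant arrays for 10 of 10 heavy probe sets, a pattern that 15.9% of all probe sets showed in that direction. Without premalignant replicate 1 or premalignant replicate 2 only Ighg3 (10403046) and Ighv3-6 with Igha (10403009) were called among the 31 (1.76% and 1.48% of all probe sets), and without shEzh2.781 replicate 1 the count was 7. As these are bulk samples, fewer cells expressing a gene and less RNA per cell cannot be told apart.

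**Figure D1:**
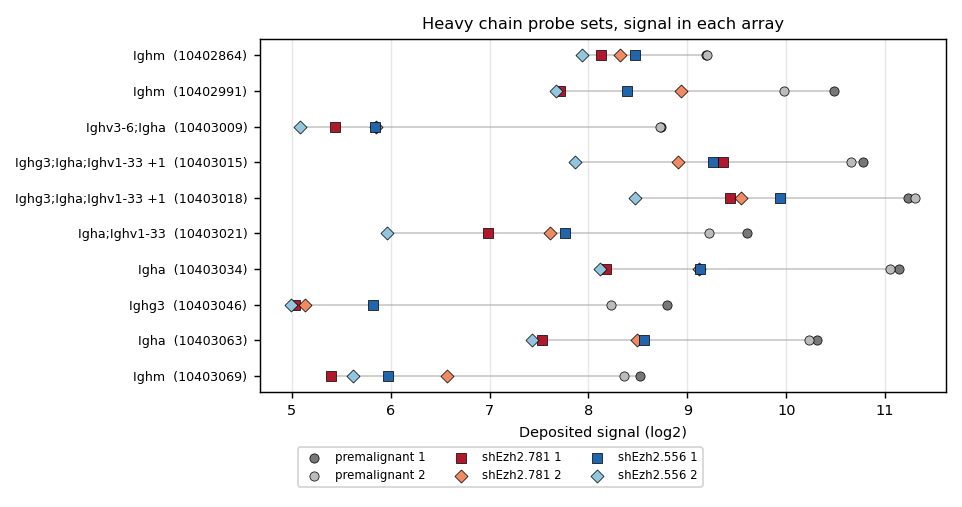
Deposited log2 signal of the 10 heavy chain probe sets (rows, with symbols and probe set number) in each of the 6 arrays (points; horizontal lines join the lowest and highest array). The premalignant arrays (grey) lie to the right of all 4 lymphoma arrays in each row, and shEzh2.556 array 2 (light blue) is the leftmost in 9 of 10.

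Ighm, the IgM heavy chain gene, had 3 probe sets. The one with 8 linked accessions (10402991) read 10.49 and 9.98 in the premalignant arrays, 7.71 and 8.94 in the shEzh2.781 arrays and 8.39 and 7.67 in the shEzh2.556 arrays. Its difference was -2.06 ± 0.37 (adjusted p = 0.0280), and the groups did not overlap, although the shEzh2.781 arrays stood 1.23 apart. The Ighm probe set 10403069 read 8.52 and 8.36, then 5.40 and 6.57, then 5.97 and 5.62 in the same order, a measured difference of -2.55 ± 0.31 (adjusted p = 0.00809), or at least 5.01-fold lower. The Ighm probe set 10402864 moved least of the heavy probe sets, from 9.19 and 9.20 to 8.13 and 8.32 with shEzh2.781 and 8.47 and 7.93 with shEzh2.556. Its difference was -0.98 ± 0.16 (adjusted p = 0.0206). The 3 Ighm probe sets thus ran the same way but by different amounts, and 10402864 and 10403069, which share 1 accession, stood up to 2.73 apart in a single array.

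The signals annotated to switched classes fell as well. Ighg3 alone (10403046, 1 accession) read 8.79 and 8.23 in the premalignant arrays, 5.03 and 5.14 with shEzh2.781 and 5.82 and 4.99 with shEzh2.556. The measured means were 8.51 and 5.25, a difference of -3.26 ± 0.26 (adjusted p = 0.00210). As all 4 lymphoma readings lay below the T cell receptor V median, Ighg3 was at least 6.07-fold lower. The Igha probe set 10403034 read 11.14 and 11.05 in the premalignant arrays and between 8.12 and 9.13 in the lymphoma arrays, a difference of -2.46 ± 0.35 (adjusted p = 0.0124). Its companion 10403063, with the same accessions, gave -2.26 ± 0.37 (adjusted p = 0.0201). No array showed an Igha or Ighg3 signal in a lymphoma that reached the premalignant level.

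Heavy V segments could be read only together with constant symbols. The probe set of Ighv3-6 and Igha (10403009) read 8.74 and 8.73 in the premalignant arrays, 5.44 and 5.85 with shEzh2.781 and 5.85 and 5.08 with shEzh2.556. Its measured difference was -3.18 ± 0.23 (adjusted p = 0.00162), or at least 6.96-fold lower, and none of the 4 lymphoma arrays kept a high Ighv3-6 signal. The probe set of Igha and Ighv1-33 (10403021) read 9.61 and 9.22, then 6.99 and 7.61, then 7.76 and 5.96, a difference of -2.33 ± 0.48 (adjusted p = 0.0392). Ighv1-26 shared 2 probe sets with Ighv1-33, Ighg3 and Igha. The first, 10403015, differed by -1.87 ± 0.36 (adjusted p = 0.0343) and the second, 10403018, by -1.92 ± 0.37 (adjusted p = 0.0317). With shEzh2.556, array 2 was the lowest for all 4 V-bearing heavy probe sets.

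The light chain loci gave 1 call among 21 probe sets for the lymphoma mean, against 6.93% of all probe sets. Both lambda probe sets read higher in all 4 lymphoma arrays than in either premalignant array, whereas the kappa probe sets had a median difference of -0.25, with 4 above 0 and 15 below. The lambda probe sets carried the same symbols, Iglv1, Iglv2 and Iglc1, and shared 1 accession. The probe set 10438405 read 10.13 and 10.55 in the premalignant arrays, 11.69 and 12.23 with shEzh2.781 and 11.28 and 11.26 with shEzh2.556. It rose by 1.28 ± 0.19, or 2.43-fold (adjusted p = 0.0142). The probe set 10438415 read 8.19 and 8.63, then 9.34 and 9.93, then 9.12 and 8.71, and its difference of 0.87 ± 0.22 did not pass (adjusted p = 0.0699). Without overlap in the higher direction stood 2 of 2 lambda probe sets and 11.2% of all probe sets. The call of 10438405 was lost when both hairpins were joined into a single lymphoma group (adjusted p = 0.0681) and without premalignant replicate 1 (difference 1.07, adjusted p = 0.107) or premalignant replicate 2 (1.49, adjusted p = 0.0588).

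**Figure D2:**
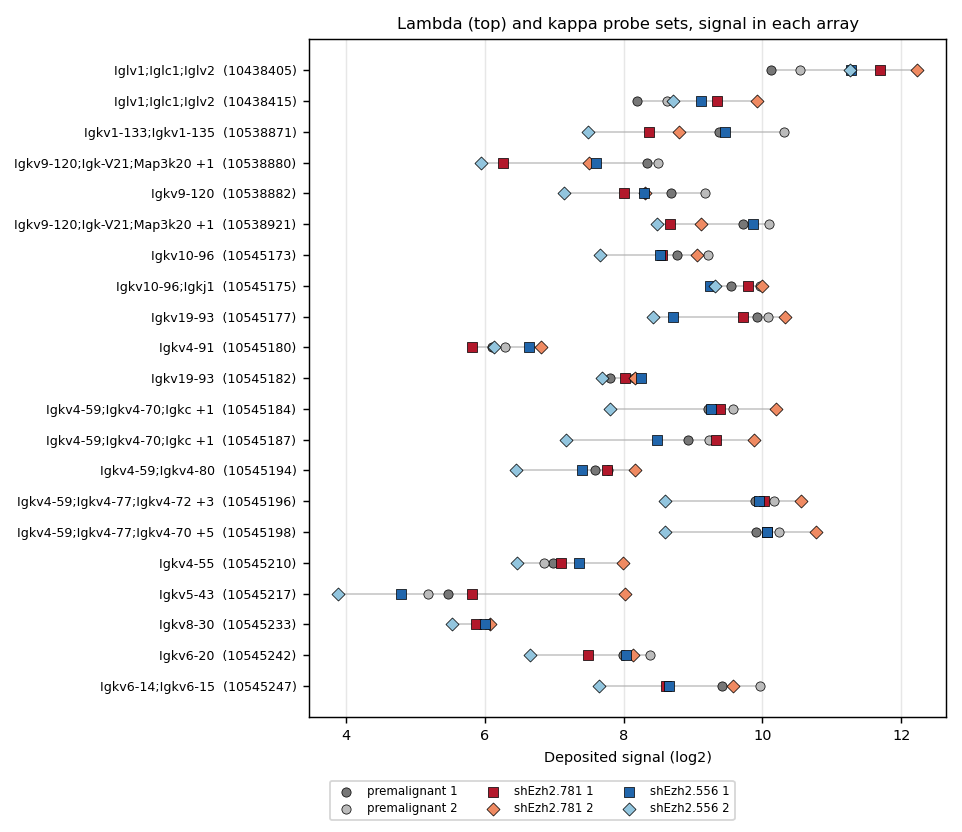
Deposited log2 signal of the 2 lambda probe sets (top rows) and 19 kappa probe sets in each of the 6 arrays (points; lines join lowest and highest). In both lambda rows the premalignant arrays (grey) are the lowest readings; in 17 of 19 kappa rows shEzh2.556 array 2 (light blue) is the lowest, and in 11 of 19 shEzh2.781 array 2 (orange) is the highest.

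The balance between the light chain loci shifted in each lymphoma array. The median lambda signal minus the median kappa signal was 0.39 and 0.37 in the premalignant arrays, 2.15 and 2.29 with shEzh2.781 and 1.72 and 2.51 with shEzh2.556. These values have meaning only between arrays, since probe sets differ in how strongly they bind. All 4 lymphoma values lay above both premalignant values; the kappa medians were 8.77 and 9.22 in the premalignant arrays, 8.37 and 8.79 with shEzh2.781 and 8.48 and 7.48 with shEzh2.556. The kappa median thus lay below both premalignant values in 3 of the 4 lymphoma arrays and between them in shEzh2.781 array 2.

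No probe set named for the kappa constant gene, Igkc, was called in the lymphoma mean. Of the 4 probe sets with that symbol, all of which also name Igkv4 segments, 10545184 read 9.21 and 9.57 in the premalignant arrays, 9.39 and 10.20 with shEzh2.781 and 9.26 and 7.80 with shEzh2.556. Its difference was -0.23 ± 0.42 (adjusted p = 0.797). The other 3 gave -0.36 ± 0.36 (10545187, adjusted p = 0.619), -0.25 ± 0.37 (10545196, adjusted p = 0.749) and -0.20 ± 0.41 (10545198, adjusted p = 0.824). In each of them shEzh2.781 array 2 was the highest and shEzh2.556 array 2 the lowest, and without the latter array the differences of 10545184, 10545196 and 10545198 turned to 0.13, 0.091 and 0.17. By hairpin, the 4 differences from the premalignant cells ran from 0.26 to 0.53 with shEzh2.781 and from -1.25 to -0.74 with shEzh2.556, none of them called. Without shEzh2.781 array 2 the first range was -0.0072 to 0.26, and without shEzh2.556 array 2 the second was -0.60 to -0.0079. In all 4 probe sets both shEzh2.781 arrays read above both shEzh2.556 arrays (differences 1.01 to 1.78, adjusted p from 0.109 to 0.238), as 23.6% of all probe sets did. The Igkj1 signal, shared with Igkv10-96 (10545175), differed by -0.17 ± 0.14 (adjusted p = 0.543).

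Kappa V segments differed among themselves. No kappa probe set was called in the lymphoma mean, and 5 of 19 had an unadjusted p below 0.05. The lowest difference was that of an Igkv9 and Igkv1 probe set: the probe set of Igkv9-120, Igkv1-117, Igk-V21 and Map3k20 (10538880) read 8.33 and 8.50 in the premalignant arrays, 6.25 and 7.49 with shEzh2.781 and 7.60 and 5.95 with shEzh2.556. Its difference was -1.59 ± 0.51 (adjusted p = 0.131), with no overlap between premalignant and lymphoma arrays. All lymphoma arrays lay below both premalignant arrays in 2 of 19 kappa probe sets, against 15.9% of all probe sets. Ordered along chromosome 6 from Igkj1 among the 162 kappa V genes of the reference table, the symbols of the 4 probe sets with Igkv1 or Igkv9 segments hold places 138 to 160, and those of the other 15 places 15 to 115. The 4 far probe sets had differences from -1.59 to -0.87 (median -1.15) and were 4 of the 5 lowest; the other 15 ranged from -1.07 to 0.31 (median -0.23). In the shEzh2.781 comparison the medians of these sets were -1.14 and 0.13, and in the shEzh2.556 comparison, which shares the premalignant arrays, -1.28 and -0.76. With shEzh2.781 the far probe sets were again 4 of the 5 lowest, but with shEzh2.556 they were 2 of the 5 lowest, and their range of -1.64 to -0.73 overlapped that of the other 15, -1.54 to 0.19. This ordering was made after the values were seen, and 2 of the 4 far probe sets share 7 accessions.

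**Figure D3:**
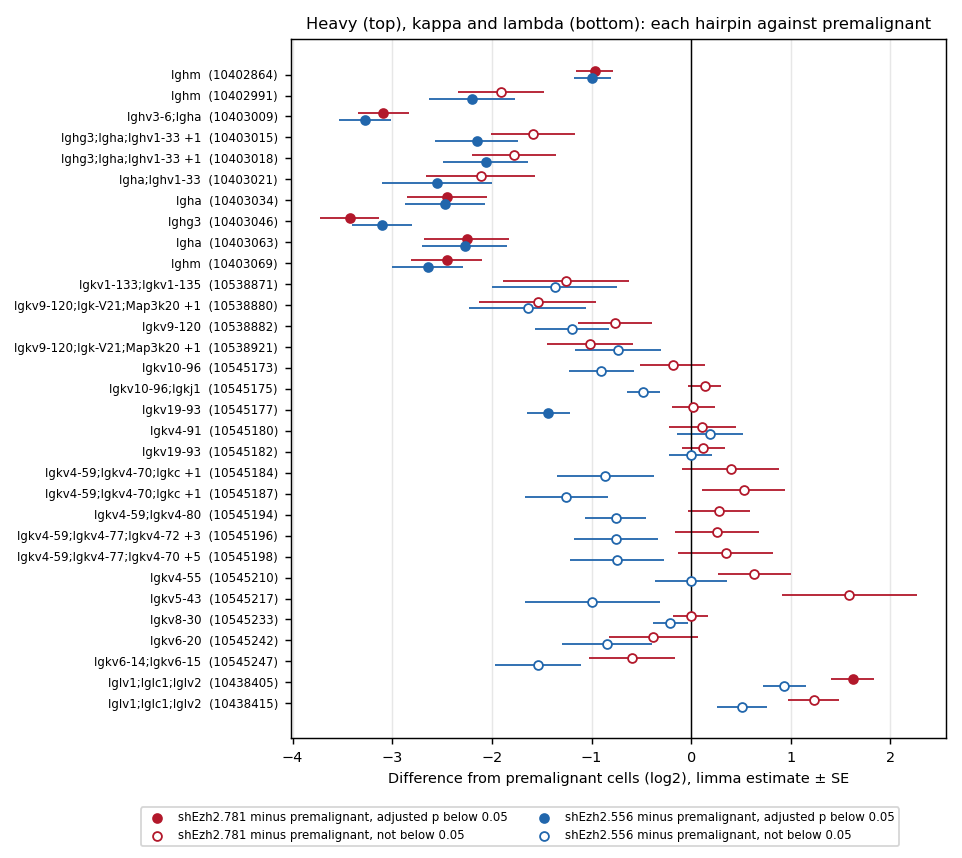
limma difference from the premalignant cells on the log2 scale (x axis, points with SE bars) for the 31 probe sets (rows), separately for shEzh2.781 (red) and shEzh2.556 (blue); filled points have an adjusted p below 0.05. All 20 heavy chain points lie below 0 and all 4 lambda points above 0, while kappa points fall on either side.

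Each hairpin was also compared with the premalignant cells by itself; both comparisons use the same premalignant arrays. For shEzh2.781, 6 of 10 heavy probe sets were called lower and 1 of 2 lambda probe sets higher, 7 of 31 against 3.51% of all probe sets (1.38% higher and 2.13% lower). The measured heavy differences ran from -3.43 to -0.97. Ighg3, below the T cell receptor V median in both shEzh2.781 arrays, had measured means of 8.51 and 5.08 (difference -3.43 ± 0.30, adjusted p = 0.00488) and was at least 6.67-fold lower. The lambda probe set 10438405 rose by 1.62 ± 0.22, or 3.08-fold (adjusted p = 0.0173), and 10438415 differed by 1.23 ± 0.25 (adjusted p = 0.0574). The 4 heavy probe sets that did not pass were Ighm 10402991 (-1.91, adjusted p = 0.0758) and the V-bearing 10403015 (-1.58), 10403018 (-1.78) and 10403021 (-2.11). Without premalignant replicate 2 the count for shEzh2.781 was 1 (0.515% of all probe sets), and without premalignant replicate 1 it was 2 (0.805%).

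For shEzh2.556, 11 of 31 probe sets were called, all lower, against 7.63% of all probe sets, 5.42% lower and 2.21% higher. All 10 heavy probe sets were among them, with measured differences from -3.27 (Ighv3-6 and Igha, 10403009) to -0.99 (Ighm, 10402864). Ighv3-6 with Igha, Ighg3 and Ighm 10403069 lay below the T cell receptor V median in both shEzh2.556 arrays and were at least 6.44, 5.52 and 5.25-fold lower. The eleventh was the kappa segment Igkv19-93 (10545177), which fell by 1.43 ± 0.21, or 2.70-fold (adjusted p = 0.0146). The lambda probe sets differed by 0.94 ± 0.22 (10438405, adjusted p = 0.0519) and 0.51 ± 0.25 (10438415, adjusted p = 0.250). Without premalignant replicate 1 or premalignant replicate 2 the count for shEzh2.556 was 2 (2.08% and 2.58% of all probe sets).

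The hairpins were compared with each other directly. Of 31 probe sets, 1 was called, higher with shEzh2.781, against 0.893% of all probe sets (0.577% higher and 0.315% lower), and it was Igkv19-93 (10545177). It read 9.92 and 10.08 in the premalignant arrays, 9.73 and 10.32 with shEzh2.781 and 8.72 and 8.42 with shEzh2.556. The difference between the hairpins was 1.46 ± 0.21 (95% interval 0.94 to 1.97, adjusted p = 0.0461), and the shEzh2.556 arrays lay below the other 4. A second probe set named Igkv19-93 (10545182), which shares 1 accession with the first, read between 7.68 and 8.25 in all 6 arrays and differed by 0.13 ± 0.21 (adjusted p = 0.735). The probe sets of this segment thus disagree, and the call was lost under quantile normalization, with the replicate number as a block and whenever 1 of the 6 arrays was left out.

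Other kappa signals tended to read higher with shEzh2.781 without passing. The difference of hairpin means was above 0 for 17 of 19 kappa probe sets, with a median of 0.64 against -0.055 over all probe sets, and 9 of the 19 had both shEzh2.781 arrays above both shEzh2.556 arrays, against 23.6% of all probe sets. Array 2 of shEzh2.556 was the lowest of the 6 in 17 of 19, and without it 11 of 19 differences were above 0, with a median of 0.28. The Igkv4 and Igkc probe set 10545187 differed by 1.78 ± 0.42 (95% interval 0.78 to 2.79, adjusted p = 0.109). The heavy probe sets gave no call between the hairpins, and 0 of 10 had an unadjusted p below 0.05. Their measured differences ran from -0.32 to 0.57, the lowest being that of Ighg3, whose readings lay below the T cell receptor V median in all 4 lymphoma arrays and are given no fold or interval. The 95% interval of Ighm 10402991 was -0.75 to 1.33. For lambda the differences were 0.69 (interval 0.17 to 1.20, adjusted p = 0.158) and 0.72 (0.11 to 1.33, adjusted p = 0.182).

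Within a group, the kappa signals differed between arrays mostly in 1 direction. In the premalignant cells 17 of 19 kappa probe sets read higher in array 2, by a median of 0.33. All 19 kappa probe sets read higher in shEzh2.781 array 2 than in array 1, by a median of 0.55. With shEzh2.556, 18 of 19 read higher in array 1 than in array 2, by a median of 1.01. Over all probe sets the median absolute difference between the arrays was 0.16 in the premalignant cells, 0.12 with shEzh2.781 and 0.15 with shEzh2.556. Of the heavy probe sets, 8 of 10 were higher in premalignant array 1 (median 0.10), 9 of 10 higher in shEzh2.781 array 2 (median 0.52) and 10 of 10 higher in shEzh2.556 array 1 (median 0.92).

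**Figure D4:**
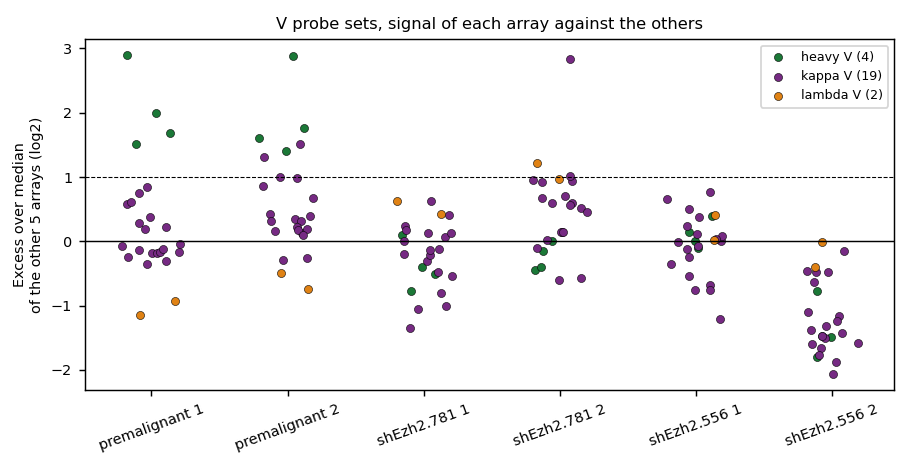
Excess of each V probe set in each array (points; heavy green, kappa purple, lambda orange) over the median of the other 5 arrays, on the log2 scale; the dashed line marks 1, and points are spread sideways only for visibility. Among lymphoma arrays a single point, Igkv5-43 in shEzh2.781 array 2, lies above 2.

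Use of single V segments was read as the excess of a probe set in 1 array over the median of the other 5 arrays. In shEzh2.781 array 2 the kappa segment Igkv5-43 (10545217, 1 accession) read 8.02, against 5.82 in the other shEzh2.781 array, 5.47 and 5.19 in the premalignant arrays and 4.79 and 3.88 in the shEzh2.556 arrays. The measured excess was 2.83, but 4 of the other 5 readings lay below the T cell receptor V median of their arrays and the fifth, 5.82, was close to its array's 5.80. With all signals raised at least to that T cell receptor V median the excess was 2.10. Igkv5-43 thus stood at least 4.30-fold above the median of the other 5 arrays, the only light V probe set with an excess above 2. In the same array the excess was 1.21 for the lambda probe set 10438415 and 1.01 for Igkv4-55 (10545210). Between the hairpins the measured means of Igkv5-43 were 6.92 and 4.34, with both shEzh2.556 readings below the T cell receptor V median. With all signals raised at least to that median, the shEzh2.781 mean was at least 1.83-fold higher, but this bound came from shEzh2.781 array 2 alone. In shEzh2.781 array 1 the reading was close to background, with an excess of -0.19 after raising. The 1.83-fold bound is therefore not read as a difference of the hairpin as a group, and the limma test between the hairpins did not pass (adjusted p = 0.127).

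The other lymphoma arrays showed no V segment of that size. In shEzh2.781 array 1 the largest light V excesses were again Igkv5-43 (0.63 as measured, -0.19 with all signals raised to the T cell receptor V median) and the lambda probe sets (0.63 and 0.42). In shEzh2.556 array 1 they were the Igkv9-120 and Igkv1-117 probe set 10538921 (0.76), Igkv1-133 with Igkv1-135 (0.66) and Igkv4-91 (0.51). In shEzh2.556 array 2 no V probe set stood above the others: the least negative were lambda 10438405 (-0.016), Igkv4-91 (-0.15) and lambda 10438415 (-0.40), and 14 of 21 light V probe sets lay more than 1 below. Among the heavy V probe sets of the lymphoma arrays the highest excess was 0.40, that of 10403018 in shEzh2.556 array 1.

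In the premalignant arrays the heavy V probe sets stood high, as their group difference requires, with excesses of 1.52 to 2.89 in array 1 and 1.40 to 2.88 in array 2. Among light V probe sets, 3 passed an excess of 1 in premalignant array 2, namely Igkv1-133 with Igkv1-135 (10538871, 1.52), Igkv6-14 with Igkv6-15 (10545247, 1.31) and 10538880 (1.00), and none did in premalignant array 1. The 52 probe sets of T cell receptor V segments were read in the same way: the highest excess in any array was 0.66, and none was called by limma in any comparison. Unadjusted p-values below 0.05 numbered 0 of 52 for the lymphoma mean and for shEzh2.781, 13 for shEzh2.556 and 21 between the hairpins.

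**Figure D5:**
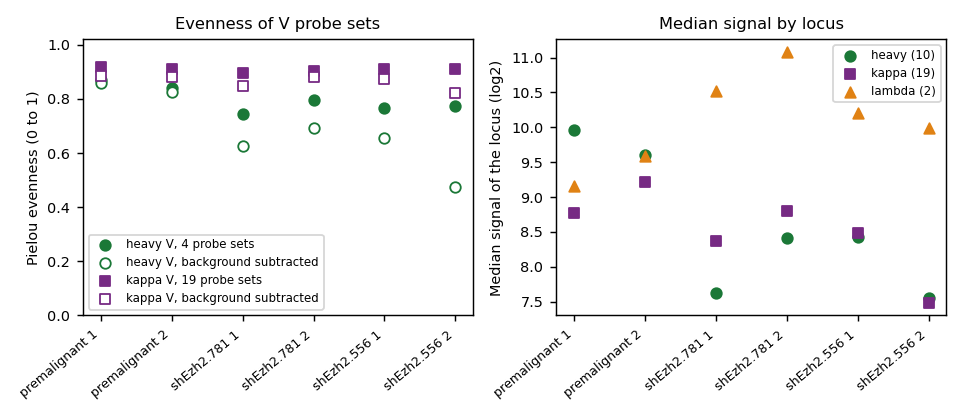
Left, Pielou evenness of the linear V signal (0 to 1) in each array for the 4 heavy and 19 kappa V probe sets, as deposited (filled) and after subtracting the array's median T cell receptor V signal (open). Right, median log2 signal of each locus per array. Heavy evenness is lower in all 4 lymphoma arrays than in the premalignant arrays. Kappa evenness stays between 0.894 and 0.917 as deposited and between 0.821 and 0.886 after subtraction.

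Evenness summed up how the V signal of a locus was spread over its probe sets. Pielou's index is 1 when the linear signal is equal in all probe sets and approaches 0 when 1 probe set holds all of it; since probe sets bind with different strength, it is compared only between arrays. For the 4 heavy V probe sets it was 0.871 and 0.842 in the premalignant arrays, 0.743 and 0.797 with shEzh2.781 and 0.766 and 0.776 with shEzh2.556, a mean difference of -0.0863. After the T cell receptor V median was subtracted the heavy difference was -0.230, with shEzh2.556 array 2 lowest at 0.475. There both Ighv3-6 with Igha (5.08) and 10403021 (5.96) lay below the subtracted median, so only 2 of the 4 probe sets kept signal. The same probe set, 10403018, had the largest share in all 6 arrays, from 44.7% to 52.4%.

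For the 19 kappa V probe sets evenness was 0.917 and 0.909 in the premalignant arrays, 0.894 and 0.902 with shEzh2.781 and 0.912 and 0.911 with shEzh2.556. The mean difference of -0.0085 was about the spread between the premalignant arrays. Over the 9 kappa V probe sets with 1 symbol it was 0.0535 in the opposite direction. Over 12 chosen to share no accession with each other it was 0.0174, so no direction is given for kappa evenness. These indices rest on 4 and 19 probe sets of a few segments, and are given as a description without a test.

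The genes that assemble and serve immunoglobulin moved in their own ways. The surrogate light chain pairs with the heavy chain in pre-B cells before a true light chain exists. Of the 4 genes listed under its name, Igll1 and the Vpreb genes, 2 were called lower in the lymphomas, against 4.77% of all probe sets. Igll1 read 11.26 and 11.79 in the premalignant arrays, 8.41 and 7.11 with shEzh2.781 and 7.68 and 7.73 with shEzh2.556. Its difference was -3.79 ± 0.35 (adjusted p = 0.00323), and Vpreb1 fell by 1.29 ± 0.11 (adjusted p = 0.00271). Vpreb2 and Vpreb3 differed by -0.29 (adjusted p = 0.163) and -0.13 (adjusted p = 0.520).

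Of 11 measured recombination genes, 6 were called lower and none higher, against 4.77% lower and 2.17% higher over all probe sets. Dntt, which adds untemplated bases at the joints, fell by 2.64 ± 0.20 (adjusted p = 0.00184). The recombinase genes Rag1 and Rag2 fell by 1.71 ± 0.15 (adjusted p = 0.00267) and 1.65 ± 0.11 (adjusted p = 0.00139), and the ligase gene Lig4 by 1.44 ± 0.11 (adjusted p = 0.00198). Rag2 also differed between the hairpins (adjusted p = 0.0449), reading 7.28 and 7.12 with shEzh2.781 and 6.44 and 6.20 with shEzh2.556. The list's median difference was -0.55 against 0.011 over all probe sets.

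The partners of surface immunoglobulin gave 3 calls of 13 measured genes, against 6.93% over all probe sets. Of 13 measured genes of the B cell receptor complex and its first signalling steps, Cd22, an inhibitory coreceptor, was called higher (0.55 ± 0.10, adjusted p = 0.0297), and the adaptor gene Pik3ap1 (-1.04 ± 0.094, adjusted p = 0.00313) and the kinase gene Blk (-1.03 ± 0.13, adjusted p = 0.00964) lower. Cd79a and Cd79b differed by -0.028 (adjusted p = 0.912) and 0.12 (adjusted p = 0.462). Of 14 measured transcription factors that act at the immunoglobulin loci, 7 were called lower and 1 higher. Spib fell by 0.82 ± 0.10 (adjusted p = 0.00829), Foxo1 by 0.60 ± 0.10 (adjusted p = 0.0206) and Irf4 by 0.64 ± 0.11 (adjusted p = 0.0233), while Bhlhe41 rose by 1.65 ± 0.12 (adjusted p = 0.00167). Pou2af1, a coactivator at octamer sites of immunoglobulin promoters, differed by -0.25 (adjusted p = 0.201).

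The secretion genes gave 3 calls of 12 and the class switch genes none of 10, against 6.93% over all probe sets. Of 10 measured genes of class switching and hypermutation none was called in the lymphoma comparison (limma), and 2 had an unadjusted p below 0.05. Of 12 measured secretion genes, Mzb1, a chaperone of the IgM heavy chain, was called higher (0.76 ± 0.086, adjusted p = 0.00646), and Slamf7 (-1.07 ± 0.10, adjusted p = 0.00317) and Irf4 lower. Jchain, which links IgM and IgA into polymers, read 6.90 and 7.65 in the premalignant arrays, 7.75 and 8.32 with shEzh2.781 and 8.41 and 6.96 with shEzh2.556. Its difference of 0.58 ± 0.43 did not pass (adjusted p = 0.492), and the groups overlapped.

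Markers of some other cells moved with the groups, while none of 6 macrophage or 3 mature B markers was called. Over all probe sets 2.17% were called higher and 4.77% lower in the lymphomas. All 8 neutrophil markers were called lower in the lymphomas, and their summed log2 signal was 12.82 and 13.03 in the premalignant arrays, 11.41 and 12.06 with shEzh2.781 and 10.23 and 9.54 with shEzh2.556. Of 10 measured plasma cell markers, 1 was called higher and 2 lower, with sums of 13.42 and 13.56, then 13.42 and 13.37, then 13.11 and 13.10. Of 9 markers of pro-B and pre-B cells, 6 were called lower, with sums of 13.14 and 13.59, then 13.01 and 12.73, then 12.22 and 12.27. Of 12 glandular markers, 9 were called higher, with sums of 9.42 and 9.69, then 10.19 and 10.47, then 14.17 and 13.64. Of 9 measured B cell markers, 4 were called lower, Pax5 (-0.44, adjusted p = 0.0445), Ebf1 (-0.49, adjusted p = 0.0367), Blk and Cd72 (-1.25, adjusted p = 0.00317), and 1, Cd22, higher. T cell markers gave 2 lower calls of 9 and sums between 9.55 and 10.68. Array signals have no true 0, so no marker can be called absent, and the part of any of these cells in the immunoglobulin differences was not tested.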

How the data were processed

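The authors deposited 1 value per probe set and array on a log2 scale; the scale was inferred from the values, which ran from 2.30 to 14.22. Background correction, normalization and summarization are not given in the sources used here, and signal near the lower limit restricts what can be seen. Symbols came from the platform annotation: of 35512 probe sets, 21789 had 1 symbol, 1621 several and 12102 none. All probe sets were fitted with limma 3.58.1 in R 4.3.3 (3 groups, no intercept, empirical Bayes with 3.43 prior and 3 residual degrees of freedom), with Benjamini-Hochberg adjustment over the whole table and a threshold of 0.05. The lymphoma contrast is the mean of both hairpin groups minus the premalignant group. The scripts were tested on simulated data. Shares, evenness and excess used numpy 2.4.6 and pandas 2.3.3 and were not tested.

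The members, gene lists and tests were chosen with earlier results of these data known. Named were all constant and J probe sets, the 3 largest V excesses per array, called V probe sets without overlap, up to 4 genes per list by p, and fixed genes; genes chosen otherwise are said to be so. A list gene with several probe sets was represented by its brightest on average. Of the listed markers, B cell genes gave 1 higher and 4 lower calls of 9, mature B 0 of 3, NK 1 lower of 5, macrophage 0 of 6, dendritic 1 higher and 1 lower of 6 and erythroid 2 lower of 4. Over all probe sets 2.17% were called higher and 4.77% lower in that comparison of lymphomas with premalignant cells. The bounds at the T cell receptor V median were added after the values were seen. Replicate numbers were not taken to pair arrays. The alternatives tried are given in the closing section. No sequence is printed, and positions along a chromosome were used only to order the kappa V genes.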

Additional observations from a re-analysis of the deposited data

Results flagged for a closer look

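Among the 31 immunoglobulin probe sets, 1 differed between the hairpins by a test of that difference: Igkv19-93 (10545177), by 1.46 on the log2 scale (adjusted p = 0.0461), with its second probe set at 0.13. Within the 4 lymphoma arrays, no probe set had a highest or lowest array far enough from the others to pass Dixon's 95% critical value of 0.829, which chance passes in about 1 of 20 groups.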

How the results depend on the processing

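Of the 11 calls between the lymphomas and the premalignant cells, no direction turned under any alternative. In all 11 the lymphoma arrays lay on the same side of both premalignant arrays. Leaving out an array or changing the model therefore could not turn a direction, and only rescaling the arrays could have done so. With 1 array left out in turn, the number of called members ranged from 2 to 15 for the lymphoma mean, from 1 to 10 for shEzh2.781, from 2 to 14 for shEzh2.556 and was 0 each time between the hairpins. The 2 lymphoma calls left without either premalignant array were Ighg3 and Ighv3-6 with Igha; 7 were left without shEzh2.781 replicate 1. Leaving out a premalignant array also cut the calls over all probe sets, to 1.76% and 1.48%. Without shEzh2.781 replicate 1 fewer of all probe sets were called as well. A fit with 1 array left out has only 1 array in a group. Members with 1 symbol only, 15 probe sets, gave 6 calls for the lymphoma mean and 7 for shEzh2.556, against 6.93% and 7.63% of all probe sets. With the lymphomas fitted as one group 8 members were called (2.82% of all probe sets). Quantile normalization gave 9, 5 and 8 calls for the lymphoma mean, shEzh2.781 and shEzh2.556, and 0 between the hairpins (6.62%, 3.06%, 7.43% and 0.842% of all probe sets). With the replicate number as a block the counts were 11, 5, 12 and 0 (5.81%, 2.58%, 6.32% and 0.451%), and with crossed pairing 10, 4, 10 and 0 (7.89%, 3.54%, 9.06% and 0.538%). Same-numbered arrays deviated with correlations of -0.15, -0.15 and 0.17, so the numbers were not taken to pair them.

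The heavy V evenness difference ran from -0.101 to -0.0719 with 1 array left out and was -0.230 with the T cell receptor signal subtracted. Leaving out 1 array could not change its sign, as every lymphoma value lay below both premalignant values. The difference was -0.163 over 3 probe sets chosen to share no accession with each other and -0.0348 over all 10 heavy probe sets. Heavy V evenness could not be computed over members with 1 symbol, as no heavy V probe set has 1. The kappa V evenness difference ranged from -0.0127 to -0.00429 with 1 array left out. It was -0.0290 with the signal subtracted and -0.0552 by the inverse Simpson index. It turned to 0.0535 over members with 1 symbol and 0.0174 over those chosen to share no accession with each other. The cause was not tested. Kappa differences between the hairpins were above 0 for 11 to 19 of 19 probe sets with 1 lymphoma array left out, 11 without shEzh2.556 replicate 2. That count, the crossed pairing, all 10 heavy probe sets and the sets sharing no accession were added after seeing the data.

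Some uncalled differences turned when 1 array was left out. In the lymphoma comparison Igkv10-96 with Igkj1 ranged from -0.38 to 0.039, positive without premalignant replicate 2, and the Igkc probe sets 10545184, 10545196 and 10545198 ranged from -0.60 to 0.13, from -0.59 to 0.091 and from -0.57 to 0.17, each positive without shEzh2.556 replicate 2. Igkv19-93 (10545177) ranged from -0.27 to 0.32 for shEzh2.781, and Igkv19-93 (10545182) from -0.16 to 0.41 between the hairpins. Few arrays, and lymphoma signals near the T cell receptor level, limit what these values can show.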
